A study of Mus musculus with 8 samples.

Results

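The genes described are H2-K1, H2-D1 and B2m, the chains of the classical major histocompatibility complex (MHC) class I molecule, on 8 Affymetrix MG_U74Av2 arrays of embryonic mouse gonads. Every probe set (a group of short oligonucleotides on the array that together measure a transcript) annotated to 1 of these genes was taken: 3 for H2-K1, 3 for H2-D1 and 1 for B2m, or 7 probe sets. A further 3 probe sets were annotated to H2-K1 or H2-D1 together with other genes and are set apart, which makes 10 of the 12488 probe sets and 3 of 8251 genes. The study measured gonads lacking Wnt4, a signalling molecule needed for ovary development, beside wild type gonads, at embryonic days 12.5 and 14.5 (E12.5 and E14.5), in both sexes. The groups, each with 1 array, were KO male E14.5, WT male E14.5, KO female E14.5, WT female E14.5, KO male E12.5, WT male E12.5, KO female E12.5 and WT female E12.5, where KO is the Wnt4 knock-out and WT the wild type. Gonads were whole tissue, with germ cells and somatic cells together, and the labels gave neither the mouse strain nor whether embryos were pooled. The 3 genes were picked from measured values of these arrays, so their own differences are given as a description without a test.

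A class I molecule is a heavy chain, encoded by H2-K1 or H2-D1, held with the small invariant light chain beta-2 microglobulin, the product of B2m. It carries peptides cut by the proteasome and moved into the endoplasmic reticulum by the Tap transporter to the cell surface, where CD8+ T cells read them. Class I genes are known to respond to interferon and to NF-kappa-B. Heavy chain genes form a large family of close copies on chromosome 17, and the classical ones differ much in sequence between mouse strains. Most of the probe sets in question carry the suffix that the array maker gives to sets shared within a gene family, so a value from them cannot be assigned to 1 heavy chain gene.

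The start regions of the 3 genes are printed because they show what the genes have in common besides their function. Each runs from 250 bases before to 50 bases after the start in RefSeq on build GRCm38.p6, all 3 genes having an entry. H2-K1 is at chr17:34000298-34000597 on the minus strand, H2-D1 at chr17:35262844-35263143 on the plus strand and B2m at chr2:122147437-122147736 on the plus strand. Capitals mark the letters found by a search of both strands: GGGNNNNNCCC (the form of an NF-kappa-B site), AANNGAAA (the form of an interferon regulatory factor site), and TGACG with ATTGG after exactly 20 bases. In these 3 windows no match of one overlaps a match of another.
H2-K1: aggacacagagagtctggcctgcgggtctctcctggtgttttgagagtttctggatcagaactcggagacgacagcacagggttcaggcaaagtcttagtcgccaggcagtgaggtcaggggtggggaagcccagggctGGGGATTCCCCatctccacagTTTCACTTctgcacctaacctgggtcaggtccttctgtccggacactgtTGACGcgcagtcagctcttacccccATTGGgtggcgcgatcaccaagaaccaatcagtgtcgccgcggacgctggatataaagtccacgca
H2-D1: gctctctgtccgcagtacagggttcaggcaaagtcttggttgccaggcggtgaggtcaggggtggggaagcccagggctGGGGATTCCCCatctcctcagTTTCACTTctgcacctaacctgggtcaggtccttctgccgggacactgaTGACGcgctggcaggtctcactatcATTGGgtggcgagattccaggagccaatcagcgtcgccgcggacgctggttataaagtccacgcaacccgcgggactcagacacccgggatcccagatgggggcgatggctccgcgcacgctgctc
B2m: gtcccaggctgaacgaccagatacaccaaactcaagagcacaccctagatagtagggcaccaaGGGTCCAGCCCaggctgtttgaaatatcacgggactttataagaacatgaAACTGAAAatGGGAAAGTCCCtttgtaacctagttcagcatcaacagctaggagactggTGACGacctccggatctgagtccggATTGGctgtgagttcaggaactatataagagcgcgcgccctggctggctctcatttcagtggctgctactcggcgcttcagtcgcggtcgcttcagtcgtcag
GGGNNNNNCCC was present in 14.0% and AANNGAAA in 23.9% of 32851 RefSeq start regions of this length, and both were present in all 3 genes. The TGACG and ATTGG pair at that distance was present in 31 of the 32851 regions (0.0944%), from 27 genes, which included H2-K1, H2-D1, B2m and H2-M3, a non-classical heavy chain gene. The distance was read from these genes and was not set independently of them. H2-K1 and H2-D1 had the same base at 218 of 239 aligned positions (91.2%). A match is a run of letters and not a measured site.

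Deposited array medians lay between 7.04 and 7.85 (log2), and arrays were put on a common scale by shifting each to the same median. Values below a floor of 6.99, the 40th percentile of all values, count as not measured. The 2 E14.5 male arrays stood apart: 1504 to 2085 probe sets were at least 2-fold away from any 1 of the other 6 arrays, against 9 to 151 among those 6 and 5 between the 2 E14.5 male arrays themselves. Centring added 0.79 (KO) and 0.77 (WT) to each E14.5 minus E12.5 difference in males and 0.24 (KO) and 0.27 (WT) in females, so male stage differences depend on it. The array labelled WT female E14.5 had Eif2s3y, a Y-linked gene, at 7.63 and Xist, the RNA that silences an X chromosome in females, at 7.10, against 4.86 and 8.13 on the KO female E14.5 array. The Eif2s3y probe set has the family suffix, so its value cannot be assigned to that gene alone. In E14.5 males that set was at 6.91 in KO, below the floor, and at 7.54 in WT. At E12.5 it was at 8.12 in KO and 7.77 in WT males, and at 6.04 in KO and 5.36 in WT females. Stage differences of the 3 genes are given for KO and WT females apart. Of the 67 listed genes called for stage in females all 67 had the same direction in the KO female pair alone. That pair is part of the fit, and genes whose KO and WT pairs disagree are hardly called. The count was thus largely fixed in advance and is no check on the WT female E14.5 array. Wnt4 itself was lower on the KO array in every pair, at 9.19 in KO and 9.42 in WT males and 8.32 in KO and 9.45 in WT females at E14.5. At E12.5 it was at 8.34 in KO and 9.26 in WT males and at 8.59 in KO and 10.19 in WT females.

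H2-K1 and H2-D1 were higher at E14.5 than at E12.5 in ovaries of both genotypes, by a size that depended on the probe set. The difference was 3.90-fold to 6.74-fold by 93120_f_at (H2-K1) and 97540_f_at (H2-D1), which had the highest means over the 8 arrays. The E14.5 female arrays themselves raise those means, so this choice favours large ovarian differences. By 101886_f_at (H2-D1) the difference was 2.72-fold to 3.05-fold, and by 97125_f_at (H2-K1) it was 0.62 ± 0.10 (log2, genotypes averaged). B2m was nearly level in ovaries and lower at E14.5 in testes. The probe sets 93120_f_at, 97540_f_at and 101886_f_at of the heavy chains also read higher on KO than on WT arrays at E14.5, by 0.28 to 0.92 (log2), while at E12.5 they lay between -0.28 and 0.12. All levels that follow are centred log2 signals. In whole gonads, fewer cells of a type and less RNA per cell cannot be told apart.

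H2-K1, a heavy chain gene, was read most brightly by probe set 93120_f_at, at 9.20 in KO males, 8.29 in WT males, 10.88 in KO females and 10.44 in WT females at E14.5. At E12.5 it was at 7.78 in KO males, 8.06 in WT males, 8.13 in KO females and 8.05 in WT females. Both E14.5 female arrays were thus highest, the KO male E14.5 array came next, and the remaining 5 lay between 7.78 and 8.29. The order among those 5 has no replicate behind it, and their whole range is 0.50, where the fit's standard error of a difference is 0.29. The stage difference was 2.75 in KO females (6.74-fold) and 2.39 in WT females (5.24-fold). Of all probe sets above the floor on either array, it was the 1st of 7776 from the top in KO females and the 4th of 7709 in WT females. Averaged over genotypes it was 2.57 ± 0.29 (SE of the fit over 8 arrays).

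The second H2-K1 probe set, 97125_f_at, gave another picture. It was at 8.66 in KO males, 8.43 in WT males, 8.04 in KO females and 7.97 in WT females at E14.5, and at 7.24, 7.37, 7.46 and 7.30 in the same order at E12.5. All E14.5 arrays lay above all E12.5 arrays, but here the E14.5 males were highest. Without centring WT male E14.5 and KO female E14.5 were level at 8.00, and male minus female at E14.5 was 0.19 in KO and 0.12 in WT, against 0.62 and 0.46 with centring. Its stage difference was 0.62 ± 0.10 in females and 1.24 ± 0.10 in males. Without centring the male differences of single pairs were 0.63 in KO and 0.30 in WT. The third, 97700_at, has no family suffix. It passed the floor on 1 array, KO female E14.5, at 7.04, and ranged from 6.62 to 6.97 on the others, so it gives no measured difference. Probe sets of H2-K1 therefore differed both in the size of the ovarian stage difference and in which sex was higher at E14.5. Male minus female at E14.5 was -1.91 ± 0.29 by 93120_f_at and 0.54 ± 0.10 by 97125_f_at.

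H2-D1, the other classical heavy chain gene, was read with the highest mean over the 8 arrays by probe set 97540_f_at. At E14.5 that set was at 9.08 in KO males, 8.24 in WT males, 10.28 in KO females and 9.85 in WT females. At E12.5 that set was at 7.79 in KO males, 8.02 in WT males, 7.97 in KO females and 7.88 in WT females. As for H2-K1, both E14.5 ovaries were highest with the KO male E14.5 array next. The stage difference was 2.31 in KO females (4.95-fold) and 1.96 in WT females (3.90-fold), the 6th and the 7th from the top of those lists. Probe set 101886_f_at of H2-D1 was at 8.96 in KO males, 8.45 in WT males, 9.87 in KO females and 9.59 in WT females at E14.5, and at 7.75, 7.86, 8.27 and 8.14 in that order at E12.5. Its order of arrays at E14.5 was that of 97540_f_at, with smaller stage differences of 1.61 in KO females (3.05-fold) and 1.45 in WT females (2.72-fold). The third H2-D1 probe set, 97541_f_at, was below the floor on all arrays, from 3.95 to 5.82. Unlike H2-K1, the 2 fitted H2-D1 probe sets thus put the same sex higher at E14.5, with male minus female at -1.41 ± 0.26 and -1.03 ± 0.16.

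B2m, the light chain gene, has 1 probe set, 93088_at, without a family suffix. It was at 8.97 in KO males, 8.98 in WT males, 10.52 in KO females and 10.67 in WT females at E14.5, and at 10.40 in KO males, 10.37 in WT males, 10.28 in KO females and 10.27 in WT females at E12.5. Only the 2 E14.5 male arrays were low, and the other 6 lay within 0.39 of each other. The stage difference was 0.24 in KO females and 0.39 in WT females, and 0.01 and 0.12 in that order without centring. In males it was -1.43 in KO and -1.39 in WT, and -2.22 and -2.16 without centring.

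**Figure D1:**
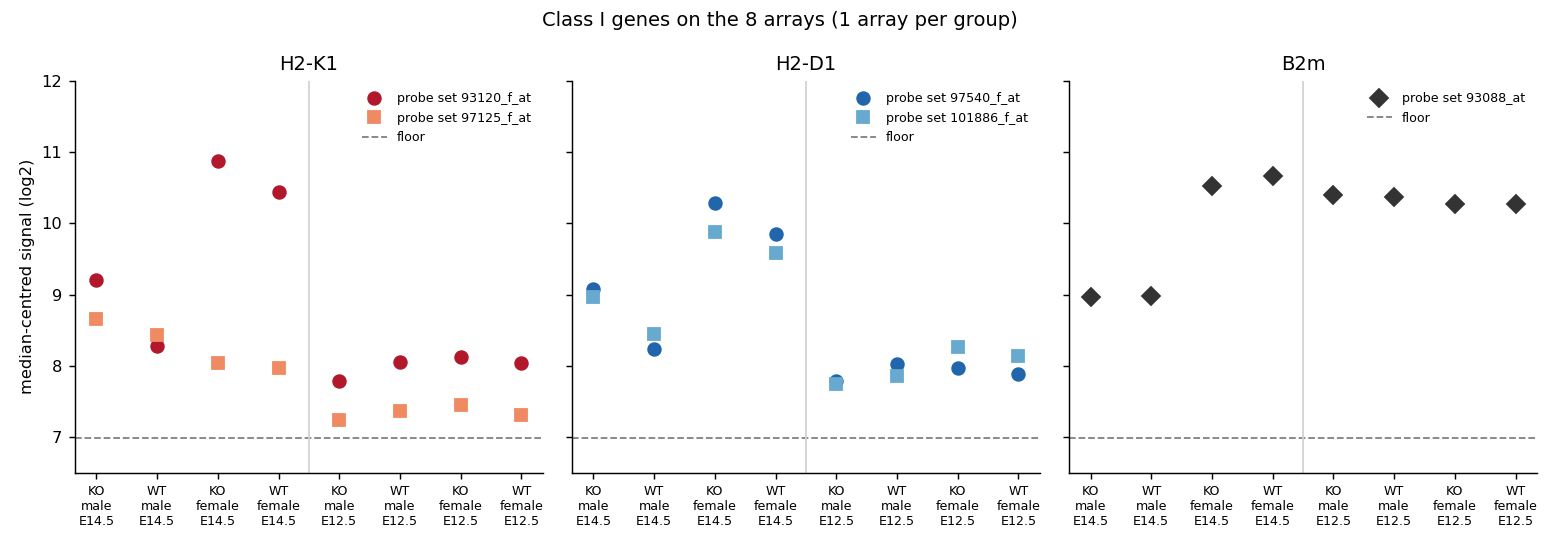
Median-centred log2 signal (vertical axis) of the fitted probe sets of H2-K1, H2-D1 and B2m on each of the 8 arrays, 1 point per array, with the floor dashed at 6.99. The E14.5 females are highest for 93120_f_at and both H2-D1 sets, the E14.5 males are highest for 97125_f_at, and B2m is low on the 2 E14.5 male arrays alone. Heights are comparable between arrays within a probe set, not between probe sets.

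Counted over probe sets of the 3 genes above the floor on either array, 3 of 6 were at least 2-fold higher at E14.5 in KO females, where 0.81% of all 7776 probe sets were. In WT females it was 3 of 5, against 0.623% of 7709. In both genotypes these were 93120_f_at, 97540_f_at and 101886_f_at. In KO males 4 of 5 were at least 2-fold higher and 1, B2m, lower, where 7.45% of all were higher and 14.0% lower. In WT males 1 was higher, 97125_f_at, and B2m was again lower, against 7.59% and 13.8%. These shares repeat the differences by which the genes were picked and add no support to them. The male counts of higher sets also depend on centring. Without it the 4 sets lay between 0.42 (101886_f_at) and 0.63 in KO males, and 97125_f_at was at 0.30 in WT males. None was then 2-fold higher, while B2m stayed lower.

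Heavy chain stage differences in testes depended on genotype and on the scaling. By 93120_f_at the stage difference was 1.42 in KO males (2.68-fold) and 0.23 in WT males (1.17-fold), and by 97540_f_at it was 1.29 in KO males and 0.21 in WT males. Without centring the KO values were 0.63 and 0.50 and the WT values -0.54 and -0.56, so that the WT direction turned. The fitted sex difference in the stage effect, male minus female, was -1.75 ± 0.41 for 93120_f_at, -1.38 ± 0.37 for 97540_f_at, -0.63 ± 0.23 for 101886_f_at and -1.73 ± 0.09 for B2m, but 0.62 ± 0.14 for 97125_f_at. It rests on the 2 E14.5 male arrays for every gene. The gap between the 3' and 5' actin control probe sets, a measure of RNA quality, was wider in males, at 1.09 (KO) and 1.37 (WT) against 0.55 (KO) and 0.77 (WT) in E14.5 females. It was 1.10 in KO and 0.96 in WT males at E12.5, against 0.49 in KO and 0.48 in WT females, and its part in the result was not tested.

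Sex differences at E12.5 were small. By single pairs they ran from -0.52 (101886_f_at, KO male minus KO female) to 0.14 (97540_f_at, WT male minus WT female) over the 5 fitted probe sets, and no probe set of the 3 genes was 2-fold apart, where 0.429% of all were between the KO and 0.445% between the WT arrays. At E14.5, 3 of 6 were at least 2-fold lower in KO males than in KO females, against 10.9% of all 8302 probe sets. The WT pair had 4 of 5 at least 2-fold lower, against 14.1% of 8362. B2m was among them in both genotypes, at -1.55 in KO and -1.69 in WT.

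The comparison of KO with WT asks what loss of Wnt4 does to these genes. At E14.5, 93120_f_at (H2-K1) was 0.92 higher in KO than in WT testes (1.89-fold) and 0.44 higher in KO than in WT ovaries (1.36-fold). The second H2-K1 set, 97125_f_at, gave 0.23 in testes and 0.07 in ovaries. H2-D1 had 0.84 in testes (1.79-fold) and 0.43 in ovaries (1.35-fold) by 97540_f_at, and 0.52 and 0.28 by 101886_f_at. The ovarian differences at E14.5, and the sex-averaged ones in part, rest on the array that is labelled WT female E14.5 but carries a Y-linked signal, and the ovarian ones have no value without it. On the WT male E14.5 array 93120_f_at was at 8.29, against 10.44 on the WT female one. In E14.5 females the summed linear signal of 13 markers of Sertoli cells, a testis cell type, was 3344 in KO and 4841 in WT. That of the 11 Leydig and steroidogenic markers was 3973 in KO and 6413 in WT. The 9 pregranulosa markers, of ovary cells, were at 3080 in KO and 4774 in WT. The part of any male RNA in the ovarian difference was not tested. At E12.5 KO minus WT was -0.28 in testes and 0.08 in ovaries for 93120_f_at, and -0.23 in testes and 0.09 in ovaries for 97540_f_at. There 97125_f_at had -0.12 in testes and 0.15 in ovaries, the ovarian value being above that of E14.5, and 101886_f_at -0.11 and 0.12. B2m had -0.01 in testes and -0.14 in ovaries at E14.5, and 0.03 and 0.00 at E12.5. Averaged over the sexes within a stage, the fitted E14.5 difference was 0.68 ± 0.15 for 93120_f_at, 0.64 ± 0.14 for 97540_f_at, 0.40 ± 0.11 for 101886_f_at, 0.15 ± 0.10 for 97125_f_at and -0.07 ± 0.08 for B2m. Of the sets shared with other genes, 102161_f_at had 0.30 ± 0.09 and 97174_r_at had -0.05 ± 0.10. Family sets of other heavy chain genes alone were read by single pairs at E14.5. The 9 above the floor in ovaries had a median KO minus WT of 0.23, from 0.06 to 0.51. In testes the 8 had 0.20, from -0.02 to 0.74. Sets of those genes without the family suffix had medians of -0.02 in ovaries and -0.04 in testes. At E12.5 the fitted difference was -0.10 ± 0.15 for 93120_f_at and -0.07 ± 0.14 for 97540_f_at. With genotype fitted within a sex, stages averaged, KO minus WT was 0.26 ± 0.29 in females and 0.32 ± 0.29 in males for 93120_f_at. For 97540_f_at it was 0.262 ± 0.265 in females and 0.306 ± 0.265 in males. The SE of that fit includes how far the difference changes with stage, and the SE within a stage does not.

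None of these differences reached 2-fold: 0 of 5 probe sets did in E14.5 males and 0 of 6 in E14.5 females, where 0.0658% and 0.248% of all probe sets were at least 2-fold apart. At E12.5 0 of 5 did in either sex, against 0.119% of all in males and 0.251% in females. By KO minus WT in E14.5 testes, 93120_f_at was the 6th of 7602 probe sets from the top and 97540_f_at the 10th. There 101886_f_at was the 51st, 97125_f_at the 616th and B2m the 3998th. In E14.5 ovaries these 5 sets were, in that order, the 65th, 71st, 205th, 1811th and 5783rd of 7653. The genes were picked from values of these arrays, so the ranks add no support. Stra8, Kitl and Irx3, 3 transcripts typical of ovaries at this stage that were picked after their values were seen, also read higher on the KO male E14.5 array than on the WT male E14.5 array. Stra8, a gene germ cells switch on before meiosis, was at 7.44 in KO and at 5.70, below the floor, in WT. Kitl, a granulosa cell growth factor, was at 7.65 in KO and 6.23 in WT, and Irx3, a granulosa cell transcription factor, at 7.77 in KO and 6.57 in WT, both WT values being below the floor too. The summed linear signal of the 9 pregranulosa markers was 2568 in KO and 2097 in WT males at E14.5, but that of the 13 germ cell markers was 5077 in KO and 5492 in WT, and Ddx4 was at 8.83 in KO and 8.88 in WT. The Eif2s3y probe set, which has the family suffix, was at 6.91, below the floor, on the KO male E14.5 array and at 7.54 on the WT one. In E14.5 ovaries Stra8 was at 9.39 in KO and 8.74 in WT, while Kitl was at 9.64 in KO and 10.39 in WT, and Irx3 at 8.85 in KO and 9.85 in WT. Their part in the KO minus WT difference of the heavy chains was not tested. In the fit over all probe sets limma called 0 of 8452 (0.0%) between KO and WT in either sex with stages averaged (unadjusted p under 0.05 for 962 in females and 405 in males). With genotype fitted within a stage, sexes averaged, it called 0 at E14.5 (353 at an unadjusted p under 0.05) and 7 (0.0828%) at E12.5, none of them a class I gene.

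**Figure D2:**
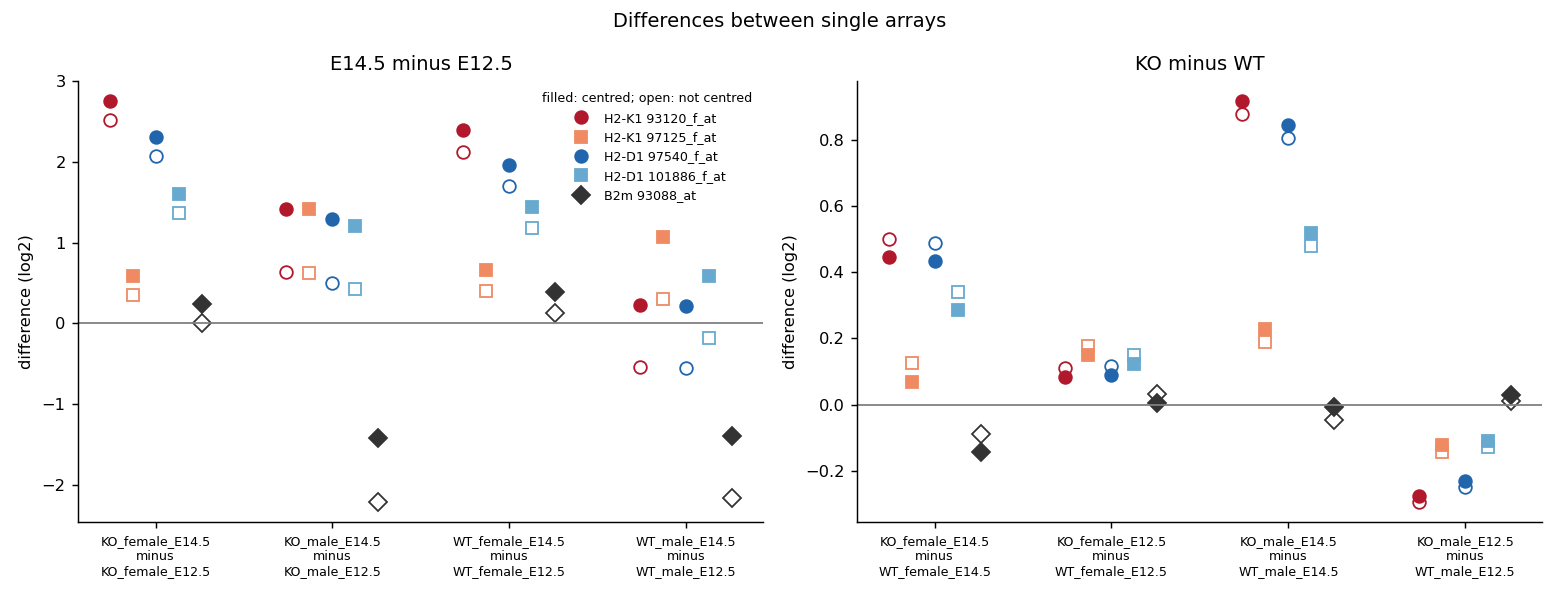
Difference in log2 signal (vertical axis) between single arrays for the fitted probe sets of H2-K1, H2-D1 and B2m, E14.5 minus E12.5 on the left and KO minus WT on the right, filled with centring and open without. Stage differences of 93120_f_at and 97540_f_at lie between 1.96 and 2.75 in females with centring, those of males shift by 0.77 to 0.79 with centring, and KO minus WT hardly depends on it.

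Other probe sets of class I heavy chain genes show how far the ovarian stage difference extends. Those annotated to several genes including a classical one split. Set 102161_f_at, annotated to 10 genes with H2-K1 and H2-D1 among them, was at 8.73 in KO males, 8.47 in WT males, 9.08 in KO females and 8.73 in WT females at E14.5, against 7.60, 7.68, 7.70 and 7.72 in that order at E12.5. Its stage difference was 1.20 ± 0.13 in females and 0.96 ± 0.13 in males. Set 97174_r_at, annotated to H2-K1 and 3 H2-Q genes, had 0.04 ± 0.06 in females and 0.80 ± 0.06 in males. The third, 95773_at, was below the floor on all arrays.

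Beyond the classical genes, 25 probe sets belong to other heavy chain genes alone. In KO females, the 9 with a family suffix that were above the floor had a median stage difference of 0.62, from -0.18 to 1.67, and 3 were at least 2-fold higher. The 9 without that suffix had a median of 0.01, from -0.28 to 0.63, and none was 2-fold higher. WT females gave medians of 0.52 and 0.05. The median over all probe sets was -0.05 in KO and -0.03 in WT females. Family probe sets share sequence with the classical genes, and how much of their signal came from H2-K1 or H2-D1 RNA was not tested.

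**Figure D3:**
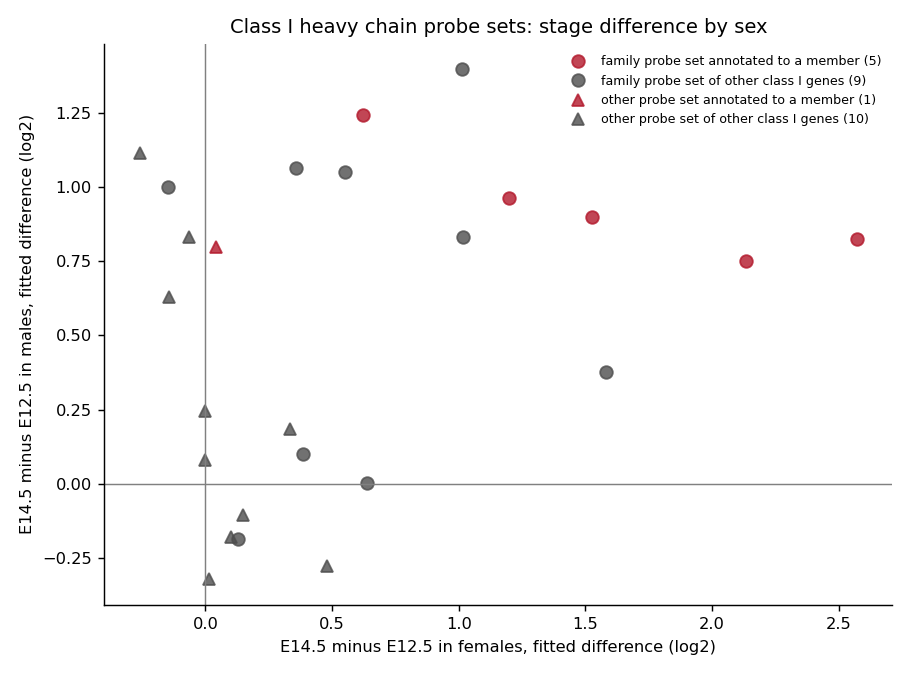
Fitted E14.5 minus E12.5 difference (log2) in females (horizontal axis) and in males (vertical axis) for the 25 fitted heavy chain probe sets, 1 point each, red where annotated to H2-K1 or H2-D1, circles with the family suffix and triangles without. The red circles reach from 0.62 to 2.57 in females, and the triangles stay between -0.26 and 0.48.

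By gene, limma called 4 of the 9 fitted genes of the other heavy chain and related list higher at E14.5 in females and 1 lower, where 8.41% of all 8452 probe sets were called higher and 14.6% lower. The median of this list was 0.01 (-0.24 without centring), against -0.02 over all fitted. H2-Q4, a non-classical heavy chain gene read by a family probe set, rose by 1.01 ± 0.22 (limma adjusted p = 0.0348). H2-Bl, a heavy chain gene named for the blastocyst, rose by 1.01 ± 0.10 (limma adjusted p = 0.0104), also by a family set. H2-Q10, which encodes a secreted heavy chain of the liver, rose by 0.48, and Procr, an endothelial receptor of class I fold that binds protein C, by 0.47. Cd1d1, which presents lipids rather than peptides, fell by 0.68. H2-M3, which presents formylated peptides and shares the TGACG and ATTGG pair, had -0.26 ± 0.08 in females (limma adjusted p = 0.0777). These 5 called directions were the same under each of the 4 scalings tried. Leaving out any 1 of the 8 arrays left 0 of the 1949 calls of this comparison. That step also cuts the residual degrees of freedom from 2 to 1. The drop therefore cannot show which calls rest on which array.

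Of 14 fitted genes of peptide loading and antigen processing, 1 was called higher at E14.5 in females and 3 lower, where 8.41% of all probe sets were called higher and 14.6% lower, with a median of -0.02 (-0.27 without centring, 0.02 with quantile normalization). Hsp90b1, a chaperone of the endoplasmic reticulum, rose by 0.30, and by 0.05 without centring. Ganab, which trims sugars of new glycoproteins, fell by 0.36, Npepps, a peptidase, fell by 0.34 and Psme1, a proteasome activator, fell by 0.24. Tapbp, which bridges class I molecules to the transporter, had -0.02 ± 0.07, Canx, a folding chaperone, 0.01 ± 0.07 and Psmb10, a subunit of the immunoproteasome, 0.04 ± 0.06. Tap1, Psmb8 and Psmb9, the transporter and immunoproteasome genes of the MHC, were below the floor on all arrays, as was Calr, a chaperone of the heavy chain. Tap2, the partner of Tap1 in the transporter, was above the floor in E14.5 males alone, at 8.13 in KO and 8.15 in WT.

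Of 19 genes that control class I transcription, 1 was called higher at E14.5 in females, Relb, an NF-kappa-B subunit (0.39 ± 0.09, limma adjusted p = 0.0416), and 7 were called lower, where 8.41% of all probe sets were called higher and 14.6% lower, with a median of -0.12 below 0 under every scaling tried. Among these 7, Nr2f1, a nuclear receptor, fell by 0.96 and Nfyb, a subunit of the CCAAT-binding factor, fell by 0.84. Irf1, an interferon regulatory factor, was at 7.74 in KO and 8.29 in WT females at E14.5, against 8.24 in KO and 8.22 in WT females at E12.5, and its change did not pass the test. Of 14 fitted genes of interferon reception and signalling, 3 were called higher and 2 lower, with a median of -0.03 (0.03 with quantile normalization, 0.14 in the KO female pair alone). Ptpn2, a phosphatase of the pathway, rose by 0.34, Irf7 by 0.33 and Stat3 by 0.24, the last turning to -0.01 without centring, while Jak2 fell by 0.40. Ifngr1, the ligand-binding chain of the interferon gamma receptor, was below the floor on all arrays, as were Ifng and Ifnb1.

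Interferon-stimulated genes, of which class I genes are part, gave 3 called higher and 1 lower of 16 fitted, with a median of 0.07 (0.00 without centring). Of all probe sets 8.41% were called higher and 14.6% lower. Irgm2, an interferon-induced GTPase, rose by 0.34 and Ifi35 by 0.32, with Irf7 as above, and Gbp2 fell by 0.87. Ifit1, Ifit2, Ifit3, Mx1, Mx2, Cxcl10 and Oas1g, strongly induced by interferon in most tissues, were below the floor on all arrays. They were picked after their values were seen. Of the 16 fitted genes, 10 had an estimate above 0 (7 without centring) and 3 below. Among those not called, Isg15 had 0.41, Ly6e 0.26, Ifitm3 0.25 and Irf1 -0.21. On the KO female E14.5 array these were at 7.50, 11.34, 9.72 and 7.74 in that order. Of 37 fitted genes that lie in the MHC but have other functions, 0 were called higher and 4 lower in females, with a median of -0.07.

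Other cell types that carry class I molecules were read through fixed markers. For each list the share over all 8452 probe sets was 8.41% called higher and 14.6% called lower at E14.5 in females. Of 13 fitted macrophage and leukocyte markers, 4 were called higher at E14.5 in females and 1 lower, with a median of 0.13 (-0.09 without centring). The summed linear signal of the 20 markers with a probe set was 4460 in KO and 4028 in WT females at E14.5, against 3717 in KO and 3507 in WT females at E12.5. Ctss, a lysosomal protease, rose by 1.08, at 8.19 in KO and 8.04 in WT females at E14.5 against 7.08 in KO and 6.82 in WT females at E12.5. C1qa, a complement subunit, rose by 0.67, Tyrobp by 0.41 and Cx3cr1 by 0.28, while Adgre1, a macrophage marker, fell by 0.16. Csf1r, the receptor that defines macrophages, had 0.11 ± 0.09, and Ptprc, the pan-leukocyte marker, was below the floor on all arrays. MHC class II genes, markers of antigen-presenting cells, had 2 of 9 called higher, Cd74 (0.64) and H2-Ab1 (0.46), and 0 lower, with a median of 0.10 (-0.16 without centring). Of 14 endothelial markers 0 were called higher and 2 lower, with a median of -0.12, Pecam1 at 0.18 ± 0.07 and Cdh5 at 0.20 ± 0.11. Stromal markers had 6 of 13 called higher and 1 lower, with a median of 0.50. Lum, a matrix proteoglycan, rose by 1.51, and Pdgfrb fell by 0.52. Germ cell markers had 4 of 11 called higher, namely Stra8 (2.08), Ddx4 (1.57), Dazl (0.81) and Dppa3 (0.68), and 4 lower. The lower ones were Kit (-1.23), Nanog (-1.11), Sox2 (-0.76) and Tfap2c (-0.63). The median of the germ cell markers was -0.36. Their summed linear signal was 7217 in KO and 7233 in WT females at E14.5, against 6733 in KO and 5802 in WT females at E12.5. The part of any of these cells in the heavy chain difference was not tested.

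To find genes with a like profile, each profile was centred on its own mean over the 8 arrays, and the root mean square distance in log2 was taken between profiles. Nearest to H2-K1 (93120_f_at) were H2-D1 at 0.23, Inca1, which encodes a cyclin-interacting protein, at 0.28, Stra8 at 0.31, Penk, the enkephalin precursor, at 0.44 and Spata5 at 0.44, where the median over all fitted probe sets was 1.18. Nearest to H2-D1 (97540_f_at) were H2-K1 at 0.23, Stra8 at 0.25, Inca1 at 0.26, Nfix, a transcription factor, at 0.33 and Ddx4, a germ cell RNA helicase, at 0.35. H2-K1 and H2-D1 are read by family probe sets, so their distance is not between independent measurements. Without the 2 E14.5 male arrays the nearest to H2-K1 was Inca1 at 0.16 and the nearest to H2-D1 was Stra8 at 0.10, with H2-D1 the 3rd and H2-K1 the 5th on each other's lists.

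B2m was not among the genes nearest to its partners. Over 8 arrays it was the 3839th nearest probe set to H2-K1, at a distance of 1.17, where the median was 1.18. It was the 5738th nearest to H2-D1, at 1.03, where the median was 0.98. Without the 2 E14.5 male arrays it was the 896th to H2-K1, at 1.15 (median 1.28). To H2-D1 it was then the 856th, at 0.91 (median 1.04). Its own nearest genes over 8 arrays were Rimklb at 0.05, Dipk2a at 0.06, Anapc11, a subunit of the anaphase-promoting complex, at 0.07, Polr2l, an RNA polymerase subunit, at 0.07 and Cadm1, an adhesion molecule, at 0.07, where the median was 0.65. Over the 6 arrays they were Ptpn2, Igsf8, Adam9, Mrps14 and Ywhaq, at 0.03 to 0.04 against a median of 0.19, so no gene of the B2m list appeared in both. These distances are over 8 or 6 arrays that share scaling, and values below the floor, such as Stra8 on 5 arrays, were set to the floor.

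**Figure D4:**
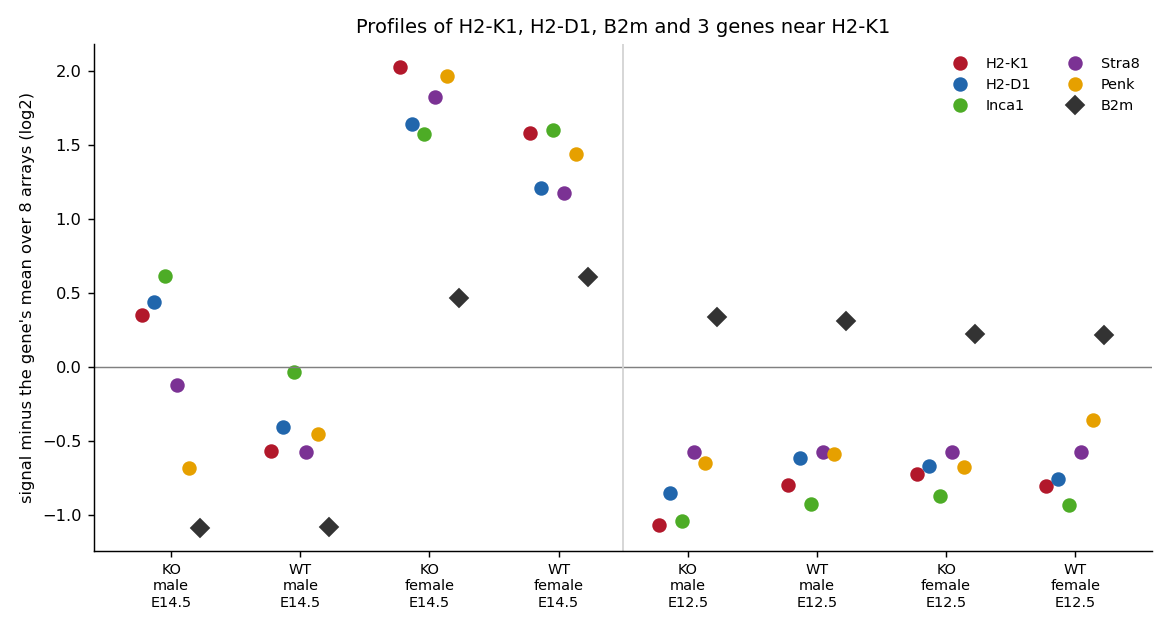
Log2 signal minus the gene's own mean over the 8 arrays (vertical axis), 1 point per array, for H2-K1 (93120_f_at), H2-D1 (97540_f_at), B2m and 3 of the genes nearest to H2-K1, with values below the floor set to it. All but B2m stand high on both E14.5 female arrays, and on the KO male E14.5 array H2-K1, H2-D1 and Inca1 stand above their means.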

How the data were processed

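RNA of embryonic gonads was measured on 8 arrays, 1 per group. Per the labels, RNA was extracted with an RNeasy kit from frozen, genotyped gonads and labelled as biotinylated cRNA. The values deposited by the authors are log2 signals made with MAS5, per the submitters' processing notes, and the log2 scale was read from the values themselves. The MAS5 version, its scaling target and the background step were not given in the sources used here. Deposited KO male E12.5 values are listed as a score, because 14 cells held spreadsheet dates (41278 to 41284) and were set to missing, none of them in a probe set of the 3 genes. Arrays hold no read depth, and their number limits the precision.

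Arrays were shifted to 1 common median. The floor was the 40th percentile of all values, and lower values were raised to it. Tests used the 8452 probe sets that passed it on 2 or more arrays, without 66 controls. With limma 3.58.1 in R 4.3.3 all arrays entered 1 model of genotype and stage within each sex, with the variance trended on intensity and p-values adjusted by Benjamini-Hochberg (threshold 0.05, two-sided). No group has a replicate, so the spread, with 2 residual degrees of freedom, is how far KO minus WT varies with stage within a sex. A second model fitted genotype within each stage, sexes averaged, and its spread is how far KO minus WT varies with sex within a stage. In both, p-values measure the spread of these arrays alone, which may be technical. The code was tested on simulated data. Differences between single arrays have no test, and an SE is that of the fit. By the platform annotation 10855 probe sets have a single gene, 396 have more than 1 and 1237 have none. Where a gene had several, the probe set with the highest mean stood for it, except for the 3 genes described. Promoters came from RefSeq (GRCm38.p6), aligned with Biopython 1.88. Protein and probe sequences were not used here.

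The 3 genes and all gene lists were chosen with earlier results of these data known. Named were every probe set of the 3 genes, fixed pathway genes, up to 4 called genes per list and direction by size, the 5 nearest profiles and defining markers. Genes named as below the floor or as not called in the interferon list, and Kitl and Irx3, were picked after their values were seen. Alternatives were other scalings, floors, variance trend, probe set summaries and leaving out arrays.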

Additional observations from a re-analysis of the deposited data

Results flagged for a closer look

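B2m, the light chain gene, differed in direction between groups in 3 comparisons; none of these differences was tested, since the gene was chosen from these values. E14.5 minus E12.5 was -1.41 in males and 0.32 in females, a gap of -1.73, with both male pairs below 0 and both female pairs above it. Male minus female was -1.62 at E14.5 and 0.11 at E12.5, which is the same gap of -1.73 seen from the other side. KO minus WT was -0.07 at E14.5 and 0.02 at E12.5, a gap of -0.0914, with both sexes on the same side within each stage, and with sizes of the order of the standard error of the fit (0.08).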

How the results depend on the processing

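No paired analysis was possible because each group has 1 array. Leaving out 1 array leaves 1 residual degree of freedom, and the lone array left of a pair is assumed to vary like the others. The arrays left of that sex are then fitted exactly. The ranges for KO minus WT and for stage within a sex thus repeat the differences of single pairs and do not measure stability. With each array left out in turn, H2-K1 ranged from 0.0823 to 0.44 for KO minus WT in females, from -0.28 to 0.92 for KO minus WT in males, from 2.39 to 2.75 for E14.5 minus E12.5 in females, from 0.23 to 1.42 for E14.5 minus E12.5 in males, from -0.76 to 0.43 for male minus female at E12.5, from -2.51 to -1.32 for male minus female at E14.5, and from -2.34 to -1.15 for the male minus female stage effect. For H2-D1 these ranges ran from 0.0895 to 0.43 for KO minus WT in females, from -0.23 to 0.84 for KO minus WT in males, from 1.96 to 2.31 for E14.5 minus E12.5 in females, from 0.21 to 1.29 for E14.5 minus E12.5 in males, from -0.56 to 0.52 for male minus female at E12.5, from -1.94 to -0.87 for male minus female at E14.5, and from -1.92 to -0.85 for the male minus female stage effect. For B2m these ranges ran from -0.14 to 0.0034 for KO minus WT in females, from -0.0062 to 0.0299 for KO minus WT in males, from 0.24 to 0.39 for E14.5 minus E12.5 in females, from -1.43 to -1.39 for E14.5 minus E12.5 in males, from 0.0335 to 0.18 for male minus female at E12.5, from -1.69 to -1.55 for male minus female at E14.5, and from -1.80 to -1.65 for the male minus female stage effect. Of the counts of called probe sets, those of E14.5 minus E12.5 in females (1949) and of male minus female at E12.5 (1377) went to 0 with any 1 array left out and with both E14.5 male arrays left out. Left-out arrays gave 4982 to 6146 calls for E14.5 minus E12.5 in males (6579 with all), 4892 to 6135 for male minus female at E14.5 (6551 with all), 4130 to 4402 for the difference of the stage effects (5836 with all) and 0 for KO minus WT in either sex.

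Without centring, calls grew to 5156 for E14.5 minus E12.5 in females and 2873 for male minus female at E12.5. With no floor and no filter, where more probe sets are tested, calls were 3794 for E14.5 minus E12.5 in females, 10058 for it in males, 3488 for male minus female at E12.5, 9852 at E14.5 and 8796 for the difference of the stage effects. The values of the 3 genes kept their direction in the ovarian stage difference under each alternative tried. Taking the mean of a gene's fitted probe sets gave 1.60 (H2-K1) and 1.83 (H2-D1) for that difference, -0.69 (H2-K1) for male minus female at E14.5, and -0.56 (H2-K1) and -1.01 (H2-D1) for the difference of the stage effects. Without centring E14.5 minus E12.5 in males was 0.0447 (H2-K1), -0.0283 (H2-D1) and -2.19 (B2m), and 0.0651 (B2m) in females. Male minus female without centring was -2.30 (H2-K1), -1.80 (H2-D1) and -2.01 (B2m) at E14.5 and 0.25 (B2m) at E12.5, and the difference of the stage effects was -2.27 (H2-K1), -1.91 (H2-D1) and -2.25 (B2m). Quantile normalization gave B2m 0.39 and -1.20 for E14.5 minus E12.5 in females and males, -0.0048 for KO minus WT in females, -1.50 for male minus female at E14.5 and -1.59 for the difference of the stage effects. Centring on the 75th percentile gave B2m 0.40 and -1.27 for the stage differences in females and males and -1.55 for male minus female at E14.5. Without both E14.5 male arrays, KO minus WT in males, then E12.5 alone, was -0.28 (H2-K1) and -0.23 (H2-D1). The cause of these shifts was not tested beyond what each setting's construction shows. The summary by a probe set without a family suffix was not run for H2-K1 and H2-D1, which have none above the floor on 2 arrays. The floor limits what can be read of dim genes, among them Tap1 and Psmb8.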
